A study of Heliconius melpomene malleti and Heliconius melpomene plesseni with 96 samples.

Results

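A set of 52 predicted genes of the butterfly Heliconius melpomene had a low level in the pupal wing on 1 day, day 3 or day 5, and similar higher levels on the other 3 days sampled. They were found among 12639 predicted genes, out of 12832 features measured in all. The members were chosen by their wing values. A feature was taken when its median over the 18 wing arrays of a day was lowest on day 3 or day 5, when the medians of the other 3 days spanned less than 1.2 on the log2 scale, and when each of them exceeded the lowest by at least 1.5. Predicted genes on 3 scaffolds were not considered. The limit of 150 features set for the list was not reached. Of the 52 members, 50 were lowest on day 3 and 2 were lowest on day 5. The same limits held for 98 features with day 1 as the lowest day and for 13 with day 7.

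Heliconius melpomene is a South and Central American butterfly whose geographic races carry different warning patterns on the wings. The wing of a butterfly pupa is a folded epithelium, in which single cells become scale cells that later build a cuticular scale and fill it with pigment. The compound eye is formed in the head during the same stage, and it serves here as a tissue that the choice of members did not use. A level that is low at 1 stage between higher ones is one form of timed gene activity in such a tissue, next to single peaks and steady rises.

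The study measured Heliconius melpomene malleti and Heliconius melpomene plesseni on pupal days 1, 3, 5 and 7 in 4 tissues: the eye, the hindwing, and the proximal and distal sections of the forewing. Each of the 32 groups, such as malleti hindwing day 3, had 3 replicates that the design text calls independent, so 96 Cy3-labelled arrays were available, 72 of wings and 24 of eyes. Per day there were 18 wing arrays and 6 eye arrays. Labels give no treatment, sex or genotype beyond the race, and do not say whether tissues came from the same individuals or whether animals were pooled. Replicates are named by their number in the labels, which runs from 1 to 96 over the whole series. Values below are log2 intensities after quantile normalization, a step that gives all arrays the same set of values. On this scale the median feature stood at 6.88 and the lower quartile at 4.55. No feature could be tied to a gene name, so each member is written as its scaffold with start and end positions. The sources used here do not name the genome build, and what the members encode is not described. The label of the tissue could not be checked with marker genes for the same reason.

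Before normalization the median intensity per array ran from 22.98 to 376. A total of 12 arrays stood apart from the rest: 10 had a median log2 intensity below 5.5, and 3 resembled the other tissue class of their day more than their own (replicate 55 did both). These were replicates 5, 8, 16, 21, 32, 34, 42, 55, 60, 67, 69 and 73, of which 7 were wing and 5 were eye arrays. Among the 18 wing arrays of day 3 they were replicates 32, 34 and 55, and among the 6 eye arrays of day 3 they were replicates 8 and 60, both labelled plesseni. Counts of called members are given with and without the arrays that stand apart. Those that resembled the other tissue class were replicates 55, 67 and 69. Replicate 67, labelled malleti eye day 7, had a rank correlation of 0.98 with the wing and 0.87 with the eye arrays of its day. Replicate 69, labelled malleti proximal forewing day 7, had 0.98 with the eye and 0.87 with the wing arrays. Replicate 55, labelled malleti distal forewing day 3, had only 0.72 with the eye and 0.65 with the wing arrays, so it resembled neither class closely. Correlations were also low for the eye arrays 8 and 60, at 0.72 and 0.70 with the eye and 0.66 and 0.63 with the wing. Labels were kept as given. In bulk tissue, fewer cells of a type and less RNA per cell cannot be told apart.

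The wing values of the members by day are a description, because these values chose the members, and no test of them is given. Over the 50 members lowest on day 3, the median of the wing levels was 8.77 on day 1, 6.54 on day 3, 8.93 on day 5 and 9.05 on day 7. The gap between the 2 lowest days ran from 1.51 to 5.17 over the 52 members, with a median of 1.98, which is 3.95-fold. The other 3 days of a member differed by 0.11 to 1.19. On the low day the SD over the 18 arrays had a median of 1.01 and ran from 0.37 to 2.66, so for some members the low day was also the most uneven one. The median on the low day lay under the lower quartile of the scale for 9 members.

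**Figure D1:**
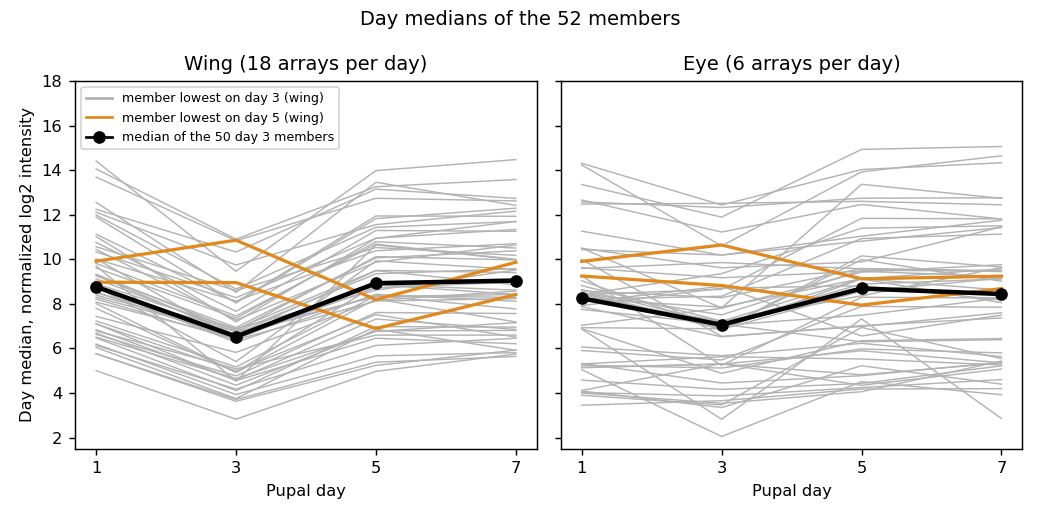
Day medians of the 52 members in the wing (left, 18 arrays per day) and in the eye (right, 6 arrays per day), as normalized log2 intensity. Grey lines are members lowest on day 3 in the wing, orange lines the 2 members lowest on day 5, and the black line is the median of the 50 day 3 members, at 6.54 in the wing and 7.07 in the eye on day 3; the wing pattern was chosen, the eye pattern was not.

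The deepest low day belonged to HE670024:6490-10581, measured by 9 probes. Its wing arrays ran from 7.88 over a median of 9.71 to 10.78 on day 1, and from 2.38 over 4.53 to 8.72 on day 3. They ran from 7.21 over 10.65 to 12.04 on day 5 and from 8.32 over 9.98 to 11.35 on day 7. The day 3 median was 36.02-fold below the next lowest day, and 14 of the 18 day 3 arrays lay below all 54 wing arrays of the other days, while the highest day 3 arrays overlapped them. In the eye the same gene had its highest median on day 3, with medians of 9.59, 9.86, 9.57 and 9.45 on days 1, 3, 5 and 7. The races stood apart there on day 3: malleti arrays were at 6.54, 7.92 and 9.11, with a median below those of days 1, 5 and 7 (10.95, 8.89 and 8.33). Plesseni arrays were at 10.60, 10.71 and 11.36, of which 2 stand apart.

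HE670533:149944-152851 came second by its gap, and it was a bright feature on every other day. On day 1 its wing arrays ran from 9.45 over a median of 14.41 to 15.16, and on day 3 from 7.23 over 9.46 to 13.22. On day 5 they ran from 12.40 over 13.98 to 14.56, and on day 7 from 13.44 over 14.47 to 14.95. All 18 day 3 arrays lay below the median of the other days, and 9 lay below every array of the other days.

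The 2 members lowest on day 5 had smaller gaps. HE668524:267987-269584 had wing medians of 9.92, 10.86, 8.19 and 9.87 on days 1, 3, 5 and 7, and its day 5 arrays ran from 7.48 to 9.56. Of those, 13 of 18 lay below all arrays of the other days. HE669358:45-653 was measured by 1 probe and had medians of 8.97, 8.96, 6.89 and 8.42, with day 5 arrays from 3.74 to 8.94. A single probe gives no second reading of the same transcript, so the wide spread of that day cannot be split into probe and sample error.

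**Figure D2:**
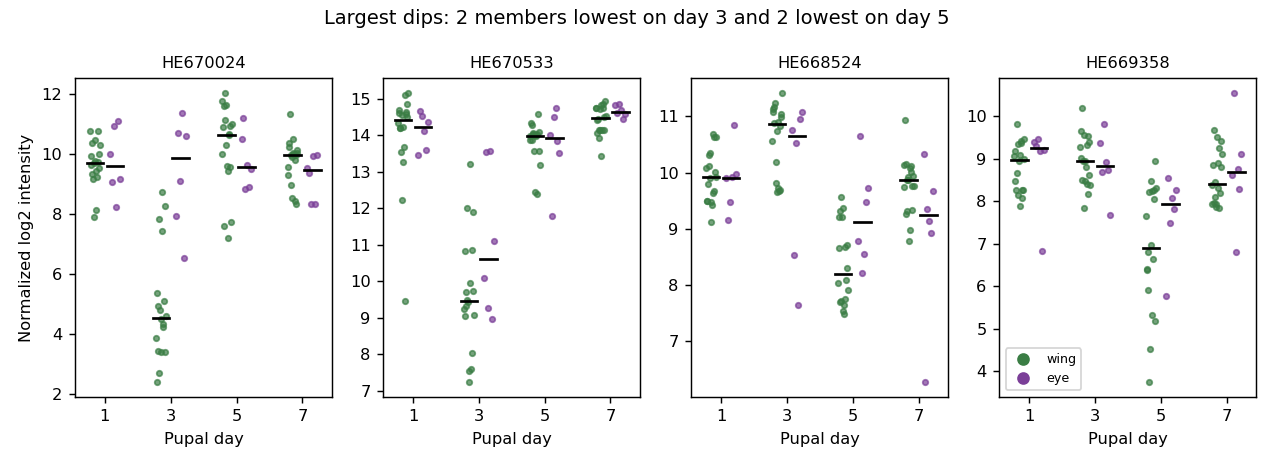
Normalized log2 intensity (vertical axis) by pupal day for the 2 members with the largest gap among those lowest on day 3 and for both members lowest on day 5. Green points are the 18 wing arrays and purple points the 6 eye arrays of a day, black bars are medians. HE670024 was low on day 3 in the wing (median 4.53) and at 9.86 in the eye, with malleti eye arrays (median 7.92) below plesseni (10.71), whereas HE670533 was low in both (9.46 and 10.60).

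At the edge of the limits, the last members inside by the gap were HE667817:117646-126695 and HE670777:11585-41126, both with a gap of 1.51. The first features outside were HE671246:33666-40155 and HE671990:27519-33381, with gaps of 1.499 and 1.498. By the span of the other days, HE671822:44318-52150 and HE670910:217936-218944 were just inside with 1.19, while HE671855:1140-6520 and HE671341:264340-269505 were just outside with 1.24 and 1.25. HE671855:1140-6520 had a gap of 2.81, so the span of its other days, and not its gap, kept it out.

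Among the chosen members the low level was shared by most arrays of day 3. The counts that follow use the wing values that chose the members, and the same counts over all features were not made. For 28 of the 50 day 3 members all 18 arrays of day 3 lay below the median of the other wing arrays, for 40 members at least 17 did, and the fewest were 11. A median of 8 of 18 day 3 arrays lay below every one of the 54 other wing arrays, with a highest count of 17, and for 3 members no array did. Counted per array, between 30 and 50 of the 50 members were at least 1 lower on the log2 scale than their own wing level on days 1, 5 and 7. On the other days between 0 and 21 members were that low in a wing array.

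Taken as 1 value per array, the median deviation of the 50 members from their wing level on days 1, 5 and 7 ran from -2.96 to -1.74 in the wings of day 3. It ran from -0.71 to 0.57 in the wings of the other days, without overlap. The members were chosen by these same arrays, so the separation follows largely from the choice. The value nearest to the other days, -1.74, belonged to replicate 55, and without the arrays that stand apart the day 3 range was -2.96 to -1.77. Arrays scanned at the lower detector gain had a median of -2.53 on day 3 and those at the higher gain a median of -2.43, and the medians of the 8 slides lay between -2.57 and -2.24. Median intensity before normalization was close between days in the wing, with day medians of 6.92, 6.85, 6.96 and 7.04 on the log2 scale for days 1, 3, 5 and 7. In the eye it was less even, with 7.76, 6.69, 7.80 and 7.87 on these days, and day 3 arrays from 4.52 to 8.42. Without the arrays that stand apart the eye medians were 7.86, 7.62, 7.88 and 7.92.

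**Figure D3:**
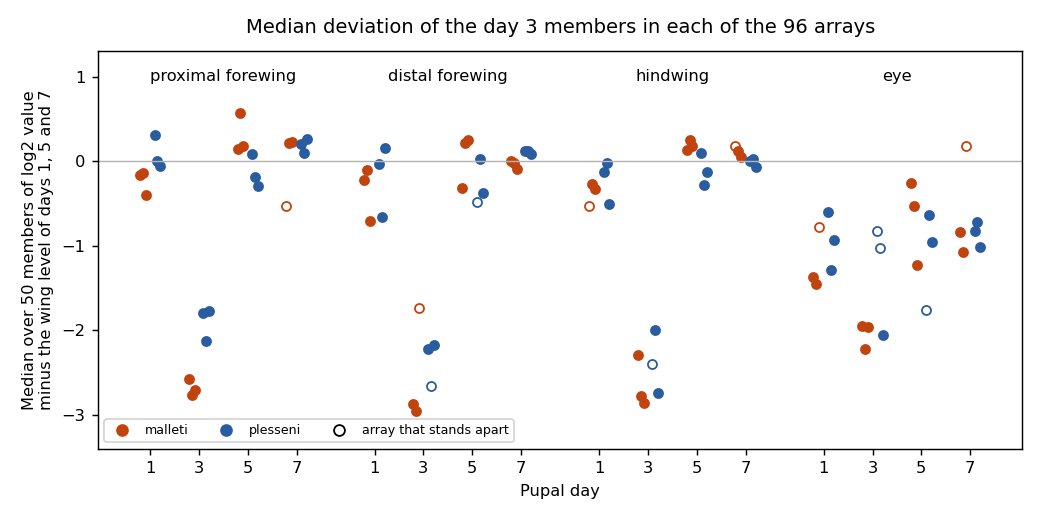
For each of the 96 arrays, the median over the 50 day 3 members of the log2 value minus the member's wing level on days 1, 5 and 7 (vertical axis), by tissue and pupal day. Filled points are arrays of malleti (orange) and plesseni (blue), open points the 12 arrays that stand apart. All wing arrays of day 3 lie between -2.96 and -1.74, and the eye arrays of day 3 lie between -2.22 and -0.83. Eye arrays lie between -1.46 and -0.60 on day 1, -1.76 and -0.25 on day 5, and -1.07 and 0.18 on day 7. The eye range of day 3 thus overlaps those of the other days.

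Within the 18 day 3 arrays, the correlation between pairs of members had a median of 0.12 and an interquartile range from -0.16 to 0.40. This is a description over arrays that share slides and sections.

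In the race and section groups, the level of the low day minus the mean level of the other days was below 0 in all 6 groups for 49 of the 52 members, and at -1 or lower in all 6 for 37. Over the day 3 members the median depth was -2.71 in the malleti proximal forewing, -2.35 in the malleti distal forewing and -2.58 in the malleti hindwing. In plesseni it was -1.83, -2.11 and -2.26 for the same sections. The 3 members that were not low in every group were HE670742:684369-689026, HE668881:111776-115418 and HE670715:8225-15210. HE670742:684369-689026 stood 0.60 above the other days in the plesseni proximal forewing and 4.38 below them in the malleti proximal forewing (depth -4.38). HE668881:111776-115418 went the opposite way: malleti stood at 0.57 proximally, 0.13 distally and -1.07 in the hindwing. Plesseni stood at -0.81, -2.70 and -2.60 for these sections. This member was measured by 1 probe, and 0 of its day 3 wing arrays lay below all those of the other days. Its SD within a wing day ran from 2.10 on day 5 to 2.86 on day 7, so little can be read from its order of the races. HE670715:8225-15210 was at 0.04 in the plesseni proximal forewing, close to no difference, and at -2.64 in the malleti proximal forewing.

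Eye arrays took no part in the choice, so they allow a test of day 3 in a second tissue. In the eye, 17 of the 50 day 3 members were lower on day 3 than on the mean of days 1, 5 and 7, and 0 were higher (limma, Benjamini-Hochberg over all 12832 features, adjusted p below 0.05). These are 34% of the members, beside 6.19% of all features called lower in this comparison, 8.61% called higher and 14.8% called in either direction. The median difference was -0.89 over the 50 members and -0.01 over all features. The sign was negative for 45 of the 50 members, against 50.5% of all features. Day medians over the members in the eye were 8.25, 7.07, 8.69 and 8.44 on days 1, 3, 5 and 7.

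HE670533:149944-152851 had the largest fall in the eye. Its 6 eye arrays ran from 13.47 over a median of 14.24 to 14.66 on day 1, from 8.96 over 10.60 to 13.57 on day 3, from 11.79 over 13.92 to 14.74 on day 5 and from 14.43 over 14.64 to 14.85 on day 7. On day 3 the malleti arrays stood at 8.96, 9.26 and 10.10, the plesseni replicate 82 at 11.11, and the plesseni replicates 8 and 60, which stand apart, at 13.55 and 13.57, within the range of the other days. It fell by 3.08 ± 0.45 (SE) on the log2 scale, or 8.46-fold (limma, adjusted p = 6.29e-07), and by 4.07 without the arrays that stand apart (adjusted p = 1.71e-08).

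HE670910:217936-218944 was the second. Eye arrays ran from 7.90 over a median of 10.50 to 13.44 on day 1 and from 6.52 over 7.82 to 13.36 on day 3. They ran from 12.82 over 13.37 to 13.80 on day 5 and from 10.51 over 12.74 to 13.40 on day 7. Again the high values of day 3 were those of replicates 8 and 60, at 12.95 and 13.36, while the other 4 arrays of that day lay at or under 7.92. The level on day 3 was lower by 7.41-fold (log2 difference -2.89 ± 0.67, SE; limma, adjusted p = 0.00206), and without the arrays that stand apart the difference was -4.65 (adjusted p = 6.20e-07). With the 440 gain arrays alone the adjusted p was 0.169.

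Day 3 in the eye is described for each race without a test. In malleti the median difference was -1.36, with 44 of 50 members below 0 and 30 at -1 or lower. In plesseni the median was -0.18, with 28 below 0 and 13 at -1 or lower. The plesseni arrays include replicates 8 and 60. Their median deviations from the wing level on days 1, 5 and 7 were -0.83 and -1.02. On this measure replicate 82 had -2.05, and malleti -2.22 to -1.95. The eye arrays of days 1, 5 and 7 had medians of -1.11, -0.79 and -0.83, so replicates 8 and 60 stood near the eye level of the other days. Leaving out the arrays that stand apart left 3 malleti arrays and 1 plesseni array on day 3, and the medians were then -1.17 and -1.23, with 41 and 39 of 50 members below 0. The difference between the races in the eye on day 3 was not tested, and the part these arrays have in it was not tested either.

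Without the arrays that stand apart, 20 of the 50 members were called lower on day 3 in the eye, against 7.9% of all features, and the median difference was -1.29. The count depended on single eye arrays of day 3: it was 11 without replicate 7, 9 without replicate 8, 9 without replicate 59 and 10 without replicate 81. The share of all features called in these fits is not given, so a loss over all features cannot be told apart. With eye groups alone in the fit, so that wings gave nothing to the estimate of spread, the count was 8, where 3.62% of all features were called in either direction. The 440 gain arrays alone gave 6 members, with a median of -0.78, and called 14.7% of all features in either direction, a share no smaller than that of the members. In the fit on the 460 gain arrays alone this comparison could not be made because some groups had no array. The deposited scale gave 33 members and called 17.1% of all features, but there the median over all features was itself at -0.89, and centring on array medians gave 10, with 3.89% of all features called. The direction was lower for every called member in each of these settings.

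**Figure D4:**
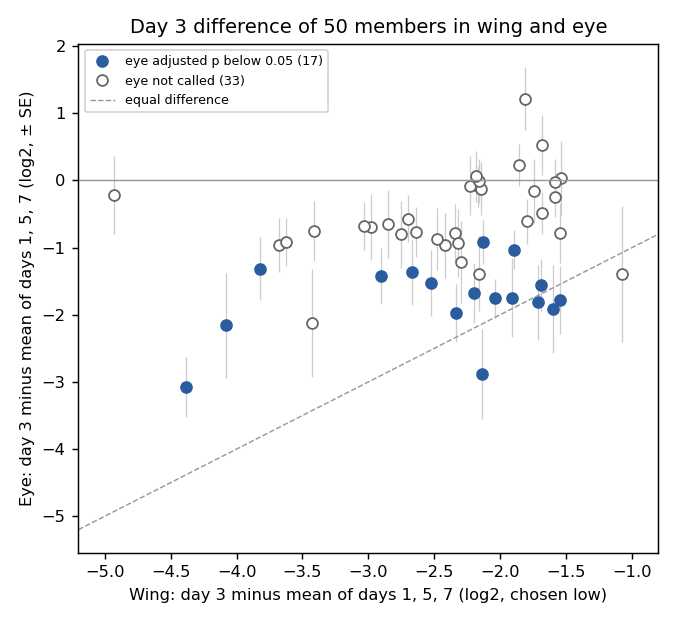
Day 3 minus the mean of days 1, 5 and 7 for the 50 day 3 members, in the wing (horizontal axis, log2, chosen to be low) and in the eye (vertical axis, log2, with bars of ± 1 SE). Filled points are the 17 members called lower in the eye by limma, open points the 33 not called, and the dashed line marks equal differences. 45 points lie below 0 in the eye.

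The day 3 differences in wing and eye can be set side by side for each member. The wing difference ran from -4.93 to -1.08 with a median of -2.19, and the eye difference from -3.08 to 1.22. It was smaller in the eye than in the wing for 45 of 50 members, a comparison that the choice on wing values favours. Spearman's rho between both differences was 0.20 over the 50 members, which share the arrays of each tissue. The 17 members called in the eye had a median wing difference of -2.14, and the 33 not called had -2.23.

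Counted by the lowest day median in the eye, 35 of the 50 members were lowest on day 3, 8 on day 1, 3 on day 5 and 4 on day 7. These 35 are 70% of the members, while day 3 was the lowest eye day for 21.3% of the predicted genes that could be chosen. Without the arrays that stand apart the count was 34 and the share of all such genes 22.2%. With the full limits of the wing applied to the eye, 7 of the 50 members qualified, against 0.293% of the predicted genes. With a gap of at least 1 in place of 1.5 there were 13 members and 1.59% of the genes.

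The fall and the return in the eye were tested as separate steps. From day 1 to day 3, 7 of the 52 members fell and 0 rose, beside 4.79% of all features called lower and 4.43% called higher, and the median difference was -0.59. From day 3 to day 5, 14 members rose and 1 fell, beside 6.99% called higher and 8.05% called lower, and the median was 0.74. When the 12 arrays that stand apart were left out, 19 rose and 1 fell, beside 18.7% of all features called in either direction, and the median was 1.21. At the step from day 1 to day 3, 10 fell and 0 rose without them, beside 8.85% of all features called in either direction. From day 5 to day 7, 1 member rose and 0 fell, beside 1.05% and 1.1%. For 3 members both the fall to day 3 and the rise from it were called, while 18 had at least 1 of these calls. On the deposited scale the medians over all features were themselves -0.71 and 0.76 at the first and second step, with 5 members called lower and 22 called higher there. Beside these counts, 2.17% and 10.8% of all features were called in either direction. The steps share the day 3 arrays, so the fall and the rise are not independent of each other.

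HE671259:13975-14759 and HE670695:40237-41287 had the largest falls from day 1 to day 3 in the eye. For HE671259:13975-14759 the eye arrays ran from 5.39 over 9.26 to 14.32 on day 1 and from 4.10 over 5.24 to 10.56 on day 3, so the days overlapped. On day 1 the plesseni arrays stood at 10.15, 14.12 and 14.32 and the malleti arrays at 5.39, 7.48 and 8.37. The fall was 9.54-fold (log2 difference -3.25 ± 0.95, SE; limma, adjusted p = 0.0201). Without the arrays that stand apart, which include the plesseni day 3 arrays at 10.22 and 10.56, the difference was -4.64 (adjusted p = 0.00302). The call was lost without replicate 30, 51, 74 or 82, with adjusted p-values up to 0.0684. It was also lost with the slide as a block (adjusted p = 0.0638), with the 440 gain arrays alone (0.226) and with the groups of the comparison alone (0.0891).

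For HE670695:40237-41287 the eye arrays ran from 7.12 over 9.99 to 11.29 on day 1 and from 5.62 over 6.55 to 7.90 on day 3. All day 1 arrays but the lowest lay above all day 3 arrays. It fell by 3.20 ± 0.61 (SE) on the log2 scale (limma, adjusted p = 1.72e-04), a call kept in all 104 alternatives run. Its eye level did not return on days 5 and 7, with medians of 6.99 and 7.60, whereas the wing medians were 9.82, 7.46 and 10.68 on days 1, 3 and 5. The count of 7 falls was 4 without replicate 30, 3 without replicate 51 and 3 without replicate 74.

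At the rise from day 3 to day 5, HE670910:217936-218944 changed most, by 16.5-fold (log2 difference 4.04 ± 0.82, SE; limma, adjusted p = 3.85e-04). Within the 440 and 460 gain arrays alone its differences were 3.28 and 4.53, with adjusted p-values of 0.0812 and 0.168. HE671534:138639-139518 had day 3 eye arrays from 9.64 over 11.89 to 14.74 and day 5 arrays from 14.26 over 14.93 to 15.32. The races stood apart on day 3, with malleti arrays at 9.64, 10.09 and 10.56. Plesseni replicate 82 was at 13.23, and replicates 60 and 8, which stand apart, were at 14.66 and 14.74. With the races pooled it rose 6.66-fold (log2 difference 2.73 ± 0.99, SE; limma, adjusted p = 0.0487). That call was near the threshold and was lost in 58 of 105 alternatives, most of them with 1 array left out. HE671419:245737-247548 was the member that fell at this step: its eye arrays ran from 6.98 over 8.79 to 8.99 on day 3 and from 4.97 over 6.56 to 7.63 on day 5. It fell by 2.14 ± 0.58 (SE) on the log2 scale (limma, adjusted p = 0.00802), and the adjusted p was 0.266 without the arrays that stand apart and 0.536 on the deposited scale. Its wing medians, 8.08, 6.47, 8.72 and 8.98, had the low on day 3, so wing and eye reached their lowest medians on different days. The count of 14 rises and 1 fall was 2 rises in all with the 440 gain arrays alone, where 9.19% of all features were called, a larger share than among the members. It was 0 calls with the 460 gain arrays alone, beside 0.382%.

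HE670855:123577-124635 was the member that rose from day 5 to day 7 in the eye, from a range of 7.18 over 9.89 to 11.76 to a range of 10.33 over 11.46 to 12.91. The log2 difference was 1.89 ± 0.54 (SE; limma, adjusted p = 0.0446). The arrays of both days overlapped, the adjusted p was 0.275 without the arrays that stand apart (0 calls, beside 0.959% of all features), and the call was lost in 11 of 105 alternatives. These included leaving out replicate 15, 16, 24, 45, 67 or 90, with 0 calls at this step each time, while the count was 2 without replicate 37, 46 or 68 and 3 without replicate 38.

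Of the 2 members lowest on day 5 in the wing, 0 were called lower on day 5 in the eye (limma), 1 had an unadjusted p below 0.05, and 6.18% of all features were called lower. Both had their lowest eye median on day 5. HE669358:45-653 had eye medians of 9.25, 8.82, 7.95 and 8.69 (log2 difference -1.16 ± 0.43, SE; adjusted p = 0.067), and HE668524:267987-269584 had 9.91, 10.64, 9.13 and 9.24 (log2 difference -0.35 ± 0.35, SE; adjusted p = 0.55). The count was 1 when replicate 42, 45, 61, 73, 82 or 89 was left out, and 0 without all arrays that stand apart, beside 5.85%.

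The choice of members pooled both races, and the difference between races was tested in the wing. The same wing arrays chose the members, and a feature low on day 3 in 1 race alone can meet the limits. A difference in depth between races among members can therefore come in part from the choice. The question is whether members stood at other levels in malleti and plesseni, and whether the low day was equally deep in both. Averaged over sections and days, 3 of the 52 members differed between the races (limma), beside 1.08% of all features, 0.787% higher and 0.296% lower in plesseni. In the eye 0 members did, beside 0.966% of all features. An unadjusted p below 0.05 was found for 9 of the 52 members, against 18.3% of all features. The eye count was 3 without replicate 52, 5 without replicate 82, and 1 with the 440 gain arrays alone, beside 6.2% of all features. With the 12 arrays that stand apart left out, 4 members differed in the wing, beside 2.37% of all features, and 0 in the eye, beside 0.148%.

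HE670742:684369-689026 was 2.87-fold higher in plesseni wings, with 9.76 ± 1.23 against 8.24 ± 2.12 in malleti (mean ± SD, n = 36 arrays each; log2 difference 1.52 ± 0.30, SE; limma, adjusted p = 0.002). HE668016:8704-14256 was 1.49-fold higher in plesseni, with 12.77 ± 0.90 against 12.19 ± 1.29 (n = 36 arrays each; limma, adjusted p = 0.025). HE671882:75426-83333 was 1.64-fold lower in plesseni, with 8.72 ± 1.74 against 9.43 ± 1.44 (n = 36 arrays each; limma, adjusted p = 0.0265). The ranges of both races overlapped for all 3 members. These SDs and ranges pool all days and wing sections, so the chosen low day widens them. They do not give the spread between replicates within a day. On the deposited scale HE668016:8704-14256 and HE671882:75426-83333 were no longer called (adjusted p = 0.407 and 0.649), and their adjusted p-values were 0.134 and 0.0692 when arrays were centred on their medians.

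The depth of the day 3 low was compared between races as the difference of day 3 from the mean of days 1, 5 and 7 in plesseni minus that in malleti. A positive value marks a shallower low in plesseni. It was positive for 35 of the 50 day 3 members, with a median of 0.43 against -0.01 over all features. Of these members 2 were called (limma), beside 0.452% of all features and 0.288% in the same direction, both shallower in plesseni, and 12 had an unadjusted p below 0.05, against 9.08% of all features. Without the arrays that stand apart 6 were called, beside 1.03%, all shallower in plesseni. The count of 2 was 4 without replicate 55 alone and 1 without replicate 9, 10, 11, 12, 33, 35, 36, 56, 57 or 83. With the slide as a block it was 2, and on the deposited scale it was 0.

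In HE670742:684369-689026 the low of day 3 was nearly all in malleti. Malleti wing arrays ran from 3.95 over 5.43 to 8.20 on day 3, from 6.42 over 7.17 to 9.36 on day 1, from 8.04 over 10.14 to 10.42 on day 5 and from 7.95 over 10.31 to 11.47 on day 7. In plesseni they ran from 5.68 over 10.55 to 11.08 on day 3, with day medians of 10.18, 9.91 and 9.38 on days 1, 5 and 7. On day 3, 7 of the plesseni wing arrays stood at 10.08 or higher, and the other 2, replicate 34 at 5.68 and replicate 58 at 5.74, stood among the malleti arrays. Replicate 34 is one of the arrays that stand apart. The difference of the depths was 3.09 ± 0.68 (SE; limma, adjusted p = 0.013), and 3.04 without those arrays (adjusted p = 0.00992). In the eye the order of the race medians changed between days, which was not tested. On day 1 malleti arrays stood at 5.40, 6.52 and 6.61 and plesseni arrays at 10.42, 10.43 and 10.51. On day 3 malleti stood at 5.65, 9.79 and 10.13 and plesseni at 6.27, 6.68 and 7.05. Plesseni replicates 60 and 8 of day 3, at 6.27 and 7.05, and malleti replicate 73 of day 1 stand apart.

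HE671216:293518-300857 was low on day 3 in both races, more so in malleti. Malleti arrays of day 3 ran from 2.90 over 3.59 to 7.81 and plesseni arrays from 4.68 over 6.84 to 7.37. The difference of the depths was 2.28 ± 0.56 (SE; limma, adjusted p = 0.0363), and 3.05 without the arrays that stand apart (adjusted p = 1.25e-04). On day 5 the order turned, with malleti arrays from 8.22 over 9.24 to 10.15 and plesseni arrays from 3.63 over 7.17 to 9.40. The races were close on day 7, with medians of 8.44 and 8.66. The call on day 3 was lost, with an adjusted p of up to 0.0978, in 11 of the 96 fits that left out 1 array, namely those without replicate 9, 10, 11, 12, 33, 35, 36, 56, 57, 80 or 83.

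The race difference of the members lowest on day 3 was also taken on day 5. Their median wing level was 9.38 in malleti and 8.58 in plesseni on day 5, against 8.35 and 8.80 on day 1, 6.28 and 6.83 on day 3, and 8.96 and 8.91 on day 7. Per member, the median of plesseni minus malleti was 0.13, 0.36, -0.47 and 0.09 on days 1, 3, 5 and 7, and 33, 33, 12 and 29 of the 50 members were higher in plesseni. In the test of day 5 against the mean of days 1, 3 and 7, the race difference was negative for 39 of 50 members, with a median of -0.57 against 0.03 over all features. Called by limma were 3 of the 50 members, all lower in plesseni, beside 0.444% of all features lower and 0.74% in either direction, and 17 had an unadjusted p below 0.05, against 11.6% of all features. This test was added over these members after values were seen. Both race tests use all wing arrays, so a higher level on day 3 in plesseni enters this second test too.

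HE671337:133714-135233 had day 5 wing arrays from 3.35 over 7.06 to 9.67 in malleti and from 3.66 over 5.11 to 6.79 in plesseni. On day 3 the malleti arrays ran from 2.94 over 3.45 to 4.32 and the plesseni arrays from 3.77 over 5.11 to 5.77. The plesseni median was thus equal on days 3 and 5 to 2 decimals, while the malleti median was lower on day 3 only. The race difference on day 5 against the other days was -3.22 ± 0.70 (SE; limma, adjusted p = 0.0128), and the adjusted p was 0.0556 without replicate 87.

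HE671216:293518-300857, described above, had a race difference of -2.99 ± 0.56 on day 5 (SE; limma, adjusted p = 0.00188), a call kept in all 103 alternatives run. HE668173:153446-159472 had one of -2.80 ± 0.59 (SE; limma, adjusted p = 0.00735). Its malleti arrays of day 5 ran from 5.88 over 9.17 to 10.09 and its plesseni arrays from 5.81 over 7.10 to 9.36. In plesseni its day medians were 10.48, 7.84, 7.10 and 8.81 on days 1, 3, 5 and 7, lowest on day 5, and in malleti 8.48, 6.68, 9.17 and 8.02, lowest on day 3. On the deposited scale its adjusted p was 0.123. For the 2 members lowest on day 5, the race difference of the day 5 low was not called (0 of 2 by limma, 1 at an unadjusted p below 0.05). Without the arrays that stand apart 1 of the 2 was called, beside 2.01% of all features, as it was without replicate 42 or 61 alone.

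**Figure D5:**
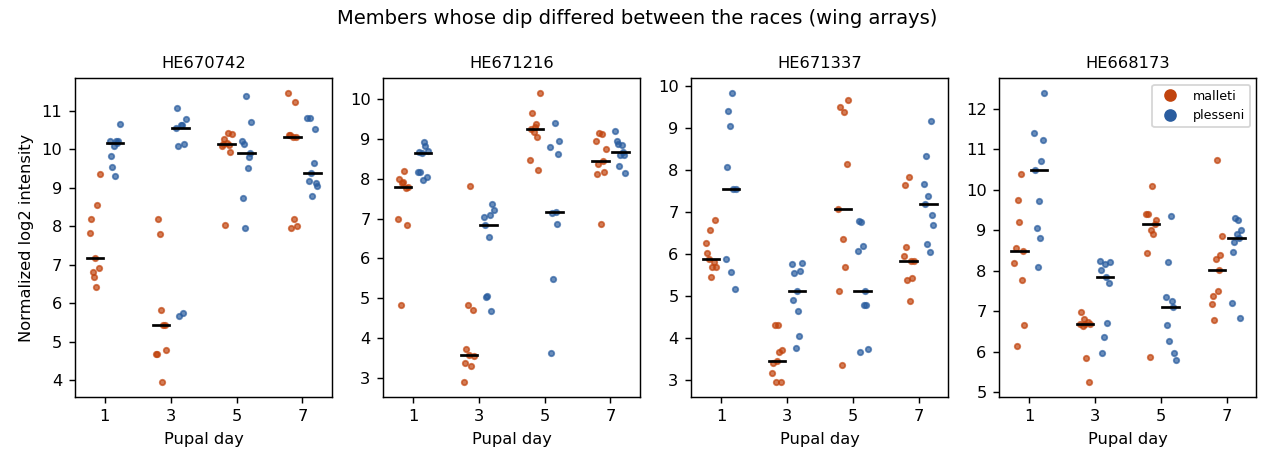
Normalized log2 intensity in the wing (vertical axis) by pupal day for the 4 members with a race difference called by limma, on day 3 (HE670742, HE671216) or on day 5 (HE671337, HE671216, HE668173) against the other days. Points are single arrays of malleti (orange) and plesseni (blue), 9 per race and day, and bars are medians. On day 3 the medians of HE670742 were 5.43 in malleti and 10.55 in plesseni, and those of HE671216 were 3.59 and 6.84.

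The sections of the wing were also pooled in the choice of members and were compared on the same wing arrays. Between distal and proximal forewing, 2 of the 52 members differed, both lower distally (limma), beside 0.522% of all features and 0.351% lower distally, and 14 had an unadjusted p below 0.05, against 8.93% of all features. Means and SDs over the 24 arrays of a section pool all days and both races, so the chosen low day widens the SD. HE671982:16366-18689 stood at 7.14 ± 1.00 distally and 8.07 ± 1.45 proximally (mean ± SD, n = 24 arrays each; log2 difference -0.93 ± 0.20, SE; limma, adjusted p = 0.0077). On day 3 the sections were close, with medians of 5.82 distally and 5.79 proximally, and on day 5 the proximal arrays ran from 8.12 over 8.38 to 8.84 and the distal ones from 6.73 over 7.41 to 7.93, without overlap.

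HE671060:441582-446996 stood at 11.77 ± 1.43 distally and 12.59 ± 1.01 proximally (n = 24 arrays each; log2 difference -0.82 ± 0.20, SE; limma, adjusted p = 0.0275). On day 1 its proximal arrays ran from 11.96 over 12.80 to 13.42 and its distal arrays from 9.77 over 11.05 to 11.65, so on that day the sections did not overlap. The call was lost without replicate 26, 33, 56, 72, 78, 79, 85, 86 or 87, each of which left 1 member called, and 4 were called without replicate 55. Without the arrays that stand apart 6 members were called, beside 2.64% of all features, and 0 were called on the deposited scale.

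Between hindwing and forewing 0 of the 52 members differed by limma, 5 had an unadjusted p below 0.05, against 3.47% of all features, and 0.0546% of all features were called. The count was 1 without replicate 32 and 1 without all arrays that stand apart, beside 0.164% of all features. The depth of the day 3 low differed between sections for 0 of the 50 members (limma, F test over 2 contrasts), with 2 at an unadjusted p below 0.05 against 3% of all features, beside 0.00779% called. For the 2 members lowest on day 5 it was also 0, with 0 at an unadjusted p below 0.05, and 0% of all features were called. Both counts were also 0 without the arrays that stand apart, beside 0.0156% and 0.00779%. A count of 0 here does not show that the sections were alike, since each of the 32 groups has 3 arrays.

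The members lay on 51 scaffolds and their lengths had a median of 5064.5 bases, against 5109 for all predicted genes that could be chosen. A set of 46 members was measured by 9 probes, which is 88.5% of them against 90.6% of these genes, and 3 members were measured by 1 probe. One pair of members were direct neighbours without overlap, HE670855:94740-103990 and HE670855:123577-124635, with wing differences of day 3 from the other days of -3.63 and -3.41.

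Of the 50 day 3 members, 46 had a next gene on the same scaffold that did not overlap them, and there were 79 such neighbours, 77 of them no members. Of these 77, 18, or 23.4%, were at least 1 lower on the log2 scale in the wing on day 3 than on the other days, against 7.86% of the predicted genes. They had a median difference of -0.16 against 0.03 over those genes. Beside HE670910:217936-218944 lay HE670910:215432-215713, with a wing difference of -4.93, and beside HE670024:6490-10581 lay HE670024:1-4237, with -3.85. Neither met the limits of the choice. Whether neighbouring gene models share probes or transcripts was not tested.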

How the data were processed

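Cy3-labelled RNA of 96 samples was hybridised to 60-base probe arrays, per the labels' protocols and the design text. Each array file deposited by the authors holds a linear-scale intensity per feature. RMA made it from the probes, per the submitters' processing notes, without a stated version or settings. The log2 of the deposited intensity was quantile-normalized over all arrays with limma (version 3.58.1, R version 4.3.3). The whole-series table held equal values and was not used.

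The members and comparisons were chosen with earlier results of these data known. A model with 32 group means (64 residual degrees of freedom) was fitted to all 12832 features, with eBayes and the Benjamini-Hochberg adjustment within each of 13 contrasts. The threshold was 0.05. A difference between races is plesseni minus malleti. The script was tested on simulated data. For each comparison the 2 members with the largest called rise and the 2 with the largest called fall are named, and for the description the 2 with the largest gap per low day and those at the limits; members at odds with a group, neighbours, single arrays and the day 5 race test over the day 3 members were singled out after their values were seen.

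Of 12832 identifiers, 0 were found in the gene table supplied (assembly ASM5695672v1), so neither names nor sequences are given. Slide and gain, at which 60 and 36 arrays were scanned, come from the names of the array files. Alternatives were the deposited scale, centring, leaving out arrays that stand apart, slide as a block, 1 gain alone, a filter on low means, eBayes with trend and robust options, only the groups compared, and each array left out in turn. The number of arrays limits the precision, and arrays were treated as independent although tissues may share individuals.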

Additional observations from a re-analysis of the deposited data

Results flagged for a closer look

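In 4 members lowest on day 3, the level of day 3 or of day 5 against the other days differed between the races in the wing, by limma's test of the difference itself, with 9 arrays per race and day. The day 3 low was shallower in plesseni by 3.09 on the log2 scale in HE670742:684369-689026 and by 2.28 in HE671216:293518-300857. The same wing arrays chose the members, so a difference in depth can come in part from the choice. On the deposited scale neither day 3 difference was called (limma, adjusted p = 0.206 and 0.162). Of 103 alternatives, 1 lost the day 3 call of the first member and 12 that of the second. Relative to the other days, the day 5 level was lower in plesseni than in malleti in 3 members, with differences of -3.22 in HE671337:133714-135233, -2.99 in HE671216:293518-300857 and -2.80 in HE668173:153446-159472. The day 5 test over these members was added after values were seen, and a race difference on day 3 enters it too. Groups of 3 arrays are too small for a test of single outlying values.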

How the results depend on the processing

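No paired analysis was possible because each replicate number occurs once in the series. The rule found 27 of the 52 members among 68 features with the 460 gain arrays alone and 34 among 45 with day means in place of medians. With 1 wing array left out it kept 47 to 52 of them, and under the other settings 40 or more. Lower calls on day 3 in the eye numbered 33 on the deposited scale, 10 after centring, 6 with the 440 gain arrays alone and 8 with the eye groups alone, and 9 to 19 with 1 array left out. Falls from day 1 to day 3 numbered 4 after centring, 4 at gain 440 and 4 with the compared groups alone, where 2.35%, 13.7% and 2.1% of all features were called, and 3 to 8 with 1 array left out. Calls from day 3 to day 5 numbered 2 at gain 440, 0 at gain 460, and 10 to 17 with 1 array left out. From day 5 to day 7 there were 0 on the deposited scale, without the arrays that stand apart, at gain 440, at gain 460 and with the compared groups alone, and 0 to 3 with 1 array left out. The count for day 5 in the eye ran from 0 to 1. For all counts with 1 array left out, the share of all features called in the same fit is not given.

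The race by day 3 count was 0 on the deposited scale and 6 without the arrays that stand apart, and ran from 1 to 4 with 1 array left out. The race by day 5 count for the 2 day 5 members was 1 without those arrays and ran from 0 to 1. Race in the wing was 2 on the deposited scale and 2 after centring and ran from 3 to 4 with 1 array left out, and race in the eye was 1 at gain 440 and ran from 0 to 5. Distal against proximal gave 0 on the deposited scale, 1 after centring, 6 without the arrays that stand apart, 1 with the slide as a block and 0 at gain 440, and ran from 1 to 4. Hindwing against forewing gave 1 without the arrays that stand apart and ran from 0 to 1, and the section by day counts stayed at 0. Of the 18 named tests, 4 kept their call in every alternative run; over all tests and alternatives there were 1868 values, of which 0 changed sign and 118 lost the call. The cause of these shifts was not tested, beyond the fewer arrays of the single-gain and compared-group fits. Other fits within 1 gain could not be made because groups had no array. Gene levels near the lower end of the scale are limited by signal over background, which the files do not give.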
